A study of Mus musculus with 6 samples.

Results

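Matrix metalloproteinases (MMPs), the membrane-bound ADAM proteases, the secreted ADAMTS proteases with their protease-free ADAMTS-like relatives, and the tissue inhibitors of metalloproteinases (TIMPs) were compared between kidneys with calcium oxalate stones and control kidneys. The families were picked with earlier results of these data known, and their members are all genes with a matching symbol, that is, every row of the expression table whose name begins with Mmp, Adam or Timp and a digit, or with Adamts, which gave 70 of 17933 genes. They are 21 MMPs, 21 ADAMs, 19 ADAMTS proteases, 5 ADAMTS-like genes and 4 TIMPs. RNA of whole kidney was sequenced from 3 samples of male wild-type C57BL/6 mice, 6 to 8 weeks old, that had received glyoxylic acid, a precursor of oxalate, by daily injection into the peritoneum at 120 mg/kg for 12 days. The other 3 samples came from like mice given the same volume of saline. The labels number the samples and do not say whether each came from a separate mouse, so p-values measure the spread between these samples only.

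MMPs, ADAMs and ADAMTS enzymes share a catalytic site that holds a zinc ion, and most are made as inactive precursors whose propeptide must be removed. MMPs cut collagen, other matrix proteins and growth factors bound to the matrix. ADAMs cut the outer parts of membrane proteins free (shedding), and ADAMTS enzymes process procollagen, proteoglycans and von Willebrand factor. TIMPs bind and block these enzymes, and in the kidney the balance of the families is known for its part in turnover of the basement membrane and in fibrosis.

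Most of these genes that were expressed at a measurable level were higher in stone kidneys. Levels are FPKM, fragments normalized for gene length and sample total. Of the 70 genes, 28 averaged 1 FPKM or more across all 6 samples and were tested on log2(FPKM + 1), the scale of every fold change and SE below. By limma over all 12319 genes tested, with a Benjamini-Hochberg adjusted p below 0.05, 20 of the 28 (71.4%) were higher in stone kidneys and 1 (3.57%), Timp3, was lower. Among all genes tested 43.5% were called higher and 13.9% lower. The median log2 fold change was 0.73 for the 28 genes and 0.21 for all tested genes. A rise of at least 1 on the log2 scale was called for 13 of the 28 (46.4%), against 7.32% of all genes. The minimum of 1 FPKM was a mean over all 6 samples, so a gene low in control samples could pass through its stone values. Mmp2, Mmp7, Timp1, Adam19, Adamts2, Adamts4, Adamts16 and Adamtsl4 passed that way, with control means from 0.16 to 0.897 FPKM. All of them were called higher, so the shares of higher calls depend in part on this minimum. The stone and control values did not overlap for 20 of the 28 genes (71.4%), 19 of them higher in stone kidneys, while they did not overlap for 66.3% of all genes tested. After median-of-ratios scaling, which moved the median of all genes to 0.01, 18 of the 28 were higher and 3 lower, with 23.9% and 24.9% of all genes.

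**Figure D1:**
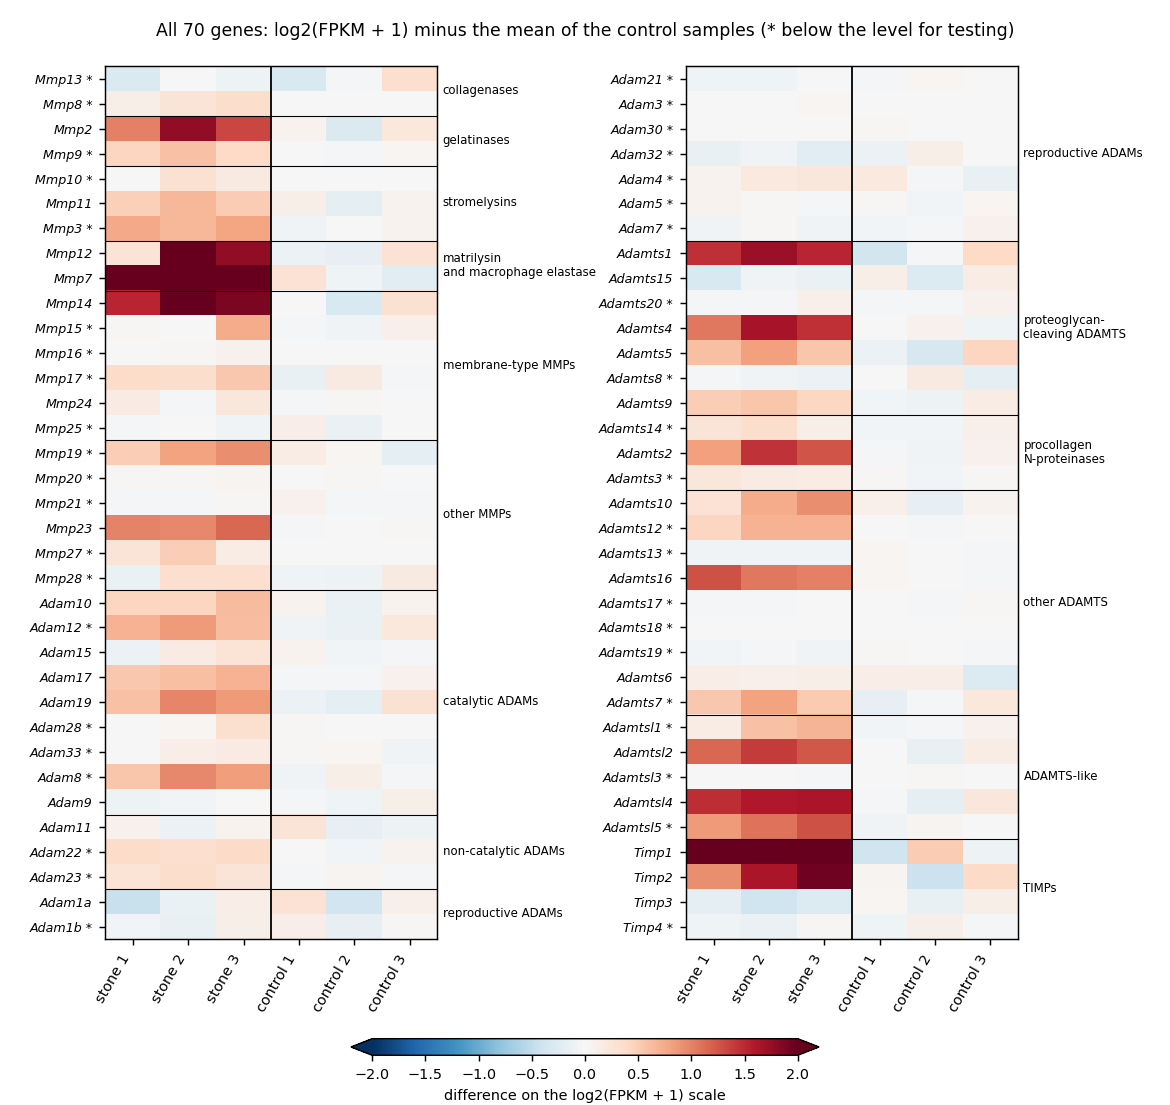
Heat map of all 70 genes in rows, grouped by role, with the 3 stone samples left of the 3 control samples in columns. Colour gives log2(FPKM + 1) minus the mean of the control samples, from below -2 (blue) to above 2 (red), and an asterisk marks genes with a mean under 1 FPKM. Red cells fill the stone columns of Timp1, Timp2, Mmp7, Mmp14, Adamts1 and Adamtsl4, while the rows of the reproductive ADAMs stay near white.

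The libraries carried markers of kidney, and markers of several cell types moved with the groups. Each of 12 marker lists had 0 genes listed at 0 in every sample. The summed FPKM of 9 proximal tubule markers lay between 11479 and 17100 in stone samples and between 150929 and 181890 in control samples (1 called higher, 6 lower). Most of that sum was Kap, and the other 8 markers summed to between 3296 and 4228 FPKM in stone and 6049 and 6909 FPKM in control samples. For 7 markers of injured tubule it lay between 8549 and 8903 in stone and 524 and 630 in control samples (all 7 higher), most of it Spp1, and for 10 macrophage and monocyte markers between 167 and 307 in stone and 62.2 and 67.3 in control samples (9 higher). Fibroblast and myofibroblast markers (9 of 10 higher) summed to between 168 and 283 in stone and 54.1 and 70.8 in control samples, endothelial markers (4 of 6 higher) to between 94.1 and 150 in stone and 58.7 and 97.8 in control samples, and neutrophil markers (3 of 3 tested higher) to between 19.1 and 28.1 in stone and 2.04 and 5.08 in control samples. Markers of T, NK and B cells reached no more than 2.17 in stone and 5.11 in control samples. Adipocyte markers summed to 46.7 in stone sample 3 and 35.1 in control sample 2, and to at most 0.41 in the other 4 samples. In RNA of whole tissue, a changed number of cells of a type and a changed amount of RNA per cell cannot be told apart, and the part of these cell types in the results below was not tested.

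The TIMPs differed in direction, with the inducible Timp1 and the widely expressed Timp2 up. The matrix-bound Timp3 was called lower by a small amount, a call that some other scalings and some left-out samples ended. Timp1, which blocks most soluble MMPs, measured 21.05, 49.55 and 33.80 FPKM in stone samples 1 to 3, against 0.11, 1.08 and 0.36 FPKM in control samples 1 to 3. The lowest stone value was far above the highest control value, and the stone samples themselves spread more than 2-fold. The log2 fold change of Timp1 was 4.53 ± 0.332 (SE, limma, adjusted p = 8.19e-05), position 5 of 12319 genes from the highest. Timp2, which inhibits MMPs and also holds pro-Mmp2 in place for activation by Mmp14, measured 24.59, 40.49 and 50.53 FPKM in stone samples and 12.87, 8.93 and 16.36 FPKM in control samples. Its groups were separate, and its log2 fold change was 1.51 ± 0.287 (SE, limma, adjusted p = 0.00399). Stone sample 1 stood lowest of the stone samples for Timp1 and Timp2 alike.

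Timp3, which binds to the matrix and inhibits ADAM17 and several ADAMTS enzymes besides MMPs, was the most abundant of the 70 genes in either group. It measured 464.19, 399.57 and 435.12 FPKM in stone samples and 541.33, 474.36 and 572.13 FPKM in control samples, and ranked 216 among all 17933 genes by its stone mean and 172 by its control mean. The groups were separated by a narrow gap, from stone sample 1 to control sample 2. Its log2 fold change was -0.29 ± 0.0941 (SE, limma, adjusted p = 0.0335), and median-of-ratios scaling gave -0.52. Setting the FPKM sums of all samples equal ended the call (-0.01, adjusted p = 0.945), as did quantile normalization (adjusted p = 0.101) and testing with no filter on low values (0.0534). It also ended when control sample 1, control sample 3, stone sample 2 or stone sample 3 was left out (limma, adjusted p of 0.102, 0.0851, 0.117 and 0.0732). Timp3 lies inside Syn3 on the opposite strand, and 21.3% of its annotated exon bases overlap Syn3 exons. Syn3 measured 1.07, 1.00 and 1.77 FPKM in stone and 3.59, 2.81 and 4.11 FPKM in control samples, far below Timp3. Timp4 was too low to test, at 0.03, 0.00 and 0.12 FPKM in stone and 0.03, 0.19 and 0.08 FPKM in control samples. Within each group its highest value fell in the sample that was high in adipocyte markers.

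The make-up of the TIMP transcripts differed although their sum overlapped between groups. The 4 TIMP genes summed to 510, 490 and 520 FPKM in stone samples and 554, 485 and 589 FPKM in control samples. Timp3 held 91%, 81.6% and 83.7% of that sum in stone samples 1 to 3 and 97.7%, 97.9% and 97.1% in control samples 1 to 3. Timp1 held 4.13%, 10.1% and 6.51% of it in stone samples and at most 0.223% in control samples.

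**Figure D2:**
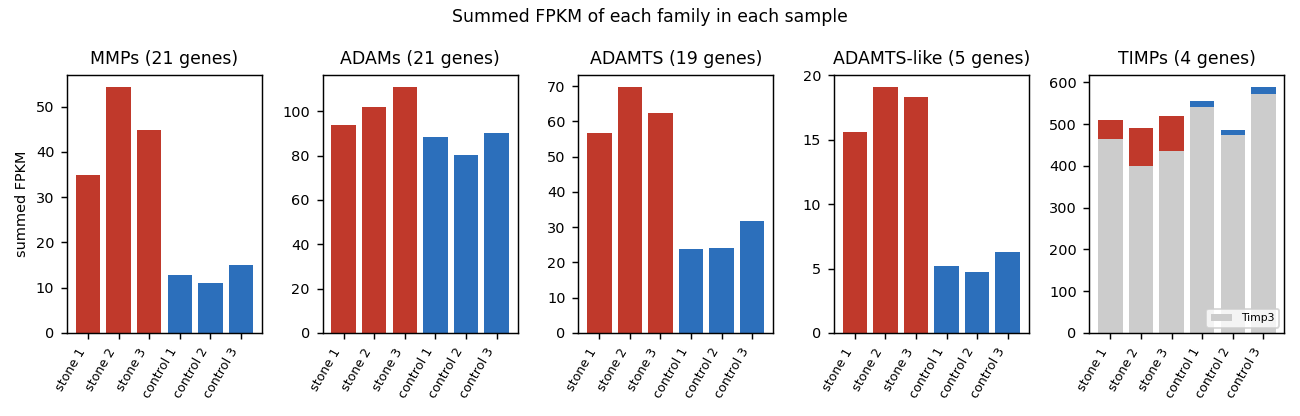
Summed FPKM of each family in each sample, with stone samples 1 to 3 in red left of control samples 1 to 3 in blue, and the part of the TIMP sum held by Timp3 in grey. MMPs summed to between 34.9 and 54.4 in stone samples and 11.1 and 15.1 in control samples, while the TIMP bars of both groups reach about the same height.

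Among MMPs, 6 of 7 tested genes rose and none fell, against 43.5% and 13.9% of all genes tested. The family summed to 34.9, 54.4 and 44.9 FPKM in stone samples and 12.8, 11.1 and 15.1 FPKM in control samples. Mmp14, a membrane-type collagenase that activates pro-Mmp2, had the highest mean of the MMPs in both groups, at 8.73, 14.50 and 11.49 FPKM in stone and 2.38, 1.72 and 3.16 FPKM in control samples. Every stone value lay above every control value, and the log2 fold change was 1.87 ± 0.207 (SE, limma, adjusted p = 0.000403). Mmp2, the gelatinase that Mmp14 and Timp2 activate together, measured 2.76, 5.41 and 3.73 FPKM in stone and 0.98, 0.53 and 1.18 FPKM in control samples. It rose by 1.37 ± 0.22 (SE, limma, adjusted p = 0.00194), so all 3 genes of this activation complex were called higher. Mmp14 and Mmp2 were both highest in stone sample 2 and lowest in stone sample 1.

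Mmp7, the matrilysin made by injured tubule epithelium, was nearly absent from control kidneys. It measured 7.85, 8.20 and 6.01 FPKM in stone samples and 0.41, 0.09 and 0.00 FPKM in control samples, with a log2 fold change of 2.85 ± 0.169 (SE, limma, adjusted p = 3.65e-05). Its 3 stone values lay close together, and it ranked 40 from the highest of 12319 genes by fold change. Mmp12, the macrophage elastase, behaved otherwise among the stone samples, at 1.42, 10.22 and 5.83 FPKM in stone and 0.84, 0.78 and 1.46 FPKM in control samples. Stone sample 1 fell within the control range while stone sample 2 was highest, in the order of the macrophage marker sums of 167, 307 and 228 FPKM and also of the thick limb and distal tubule marker sums of 1394, 2208 and 1676 FPKM. Mmp12 was called at 1.51 ± 0.505 (SE, limma, adjusted p = 0.0364), a call that ended under median-of-ratios scaling (adjusted p = 0.0522), quantile normalization (0.0825) and no filter (0.0645). Removal of any of the 3 control samples (limma, adjusted p of 0.0935, 0.104 and 0.0603), of stone sample 2 (0.0882) or of stone sample 3 (0.0876) ended it too, while without stone sample 1 the log2 fold change was 2.13 and the call was kept.

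Mmp11, stromelysin-3, measured 2.93, 3.49 and 3.01 FPKM in stone and 2.07, 1.48 and 1.96 FPKM in control samples. Mmp23, an MMP that lacks the hemopexin domain of most others, measured 3.99, 3.87 and 4.53 FPKM in stone and 1.46, 1.49 and 1.54 FPKM in control samples. Both were separate between groups and called higher, with log2 fold changes of 0.55 for Mmp11 and 1.04 for Mmp23 (limma, adjusted p = 0.00683 and 0.00019). The Mmp11 call was lost after quantile normalization (adjusted p = 0.283). Mmp24, a membrane-type MMP known from neurons, did not pass, at 2.64, 2.20 and 2.80 FPKM in stone and 2.18, 2.31 and 2.27 FPKM in control samples (log2 fold change 0.12, limma, adjusted p = 0.34). It was called higher with equal FPKM sums (0.32, adjusted p = 0.0314), and its sign turned to -0.04 under median-of-ratios scaling.

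The other 14 MMPs were below 1 FPKM on average, but several were separate between groups. Of all genes below the level for testing, 20.1% were separate and higher in stone kidneys. Mmp3, stromelysin-1, measured 0.77, 0.67 and 0.81 FPKM in stone and 0.00, 0.05 and 0.10 FPKM in control samples. Mmp9, the gelatinase of leukocytes, measured 0.48, 0.66 and 0.45 FPKM in stone and 0.10, 0.08 and 0.13 FPKM in control samples, and Mmp19 measured 0.66, 1.05 and 1.24 FPKM in stone and 0.30, 0.21 and 0.04 FPKM in control samples. Every stone value of these 3 genes lay above every control value. With the lower minimum of 0.3 FPKM all 3 were called higher (limma, adjusted p = 0.000978, 0.00738 and 0.00537). The collagenase Mmp8 was listed at 0.09, 0.19 and 0.27 FPKM in stone samples and at 0 in each control sample, as was Mmp27 at 0.19, 0.40 and 0.11 FPKM in stone samples. Mmp13, the main interstitial collagenase of mice, was lower on average in stone kidneys, at 0.46, 0.77 and 0.66 FPKM in stone and 0.44, 0.74 and 1.25 FPKM in control samples, and its groups overlapped. Mmp17 was separate and higher, at 0.64 to 0.84 FPKM in stone and 0.15 to 0.44 FPKM in control samples. Mmp10, Mmp15, Mmp16, Mmp20, Mmp21, Mmp25 and Mmp28 overlapped between groups.

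Neighbouring MMP genes of a single locus differed widely in level and change. On mouse chromosome 9 (GRCm38.p6), 8 of the 21 MMP genes lie between positions 7272514 and 7699585, in the order Mmp13, Mmp12, Mmp3, Mmp10, Mmp8, Mmp27, Mmp20 and Mmp7. Mmp7, Mmp3, Mmp8 and Mmp27 were separate between groups and higher in stone kidneys, Mmp20 stayed at or below 0.04 FPKM in all 6 samples, and Mmp10, Mmp12 and Mmp13 overlapped. Promoter sequences from RefSeq (GRCm38.p6, 250 bases before to 50 after each gene start) were found for 44 of the 70 genes, among them 16 of the 21 called genes, and were searched for 3 motifs, counting a gene with several annotated starts once if any start had a match. The called genes with no such sequence were Mmp2, Adamts4, Adamts5, Adamts10 and Adamts16. The AP-1 motif TGAGTCA, on either strand, was present in 7 of the 44 (15.9%) and in 5.95% of all 27025 genes with a promoter. The TATA box motif TATAAA, anywhere in the window on the gene's strand, was present in 9 (20.5%) and in 9.77% of all genes. Both occurred together in 5 of the 44 (11.4%) and in 0.736% of all genes. The 5 were Mmp3, Mmp7, Mmp10, Mmp12 and Mmp13 of the chromosome 9 locus. Most of the genes with AP-1, and most of those with TATAAA, also lay in this locus. Outside it AP-1 was found only in Adam19 and Adam1b, and TATAAA only in Mmp21, Adamts1 and Adamtsl2. The Ets-factor motif AGGAAG (PEA3), on either strand, was present in 38.6% of the 44 and 38.4% of all genes. No match of 1 motif overlapped a match of another in the promoters of the 44 genes.

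The 150 bases before an annotated start of those 5 genes are shown. A promoter window of each of these genes holds the same pair of motifs, while the genes differed in level and change. The stretch shown for Mmp12 holds AP-1 only. All lie on the plus strand of chromosome 9, and capitals mark the AP-1 motif (TGAGTCA, or TGACTCA where it reads on the other strand) and TATAAA.
Mmp7, chr9:7691940-7692089: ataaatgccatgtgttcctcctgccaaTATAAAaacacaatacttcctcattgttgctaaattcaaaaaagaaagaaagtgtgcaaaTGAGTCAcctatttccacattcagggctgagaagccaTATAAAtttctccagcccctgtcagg
Mmp3, chr9:7445672-7445821: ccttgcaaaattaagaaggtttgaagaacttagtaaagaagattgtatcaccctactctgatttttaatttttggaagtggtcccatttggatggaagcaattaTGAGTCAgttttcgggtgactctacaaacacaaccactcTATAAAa
Mmp10, chr9:7502192-7502341: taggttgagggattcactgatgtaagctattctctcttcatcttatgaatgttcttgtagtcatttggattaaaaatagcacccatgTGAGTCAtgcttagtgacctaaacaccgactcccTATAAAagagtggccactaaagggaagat
Mmp12, chr9:7347224-7347373: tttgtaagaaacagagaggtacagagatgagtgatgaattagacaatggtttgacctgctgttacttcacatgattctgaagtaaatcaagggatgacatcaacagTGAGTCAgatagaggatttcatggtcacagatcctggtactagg
Mmp13, chr9:7272364-7272513: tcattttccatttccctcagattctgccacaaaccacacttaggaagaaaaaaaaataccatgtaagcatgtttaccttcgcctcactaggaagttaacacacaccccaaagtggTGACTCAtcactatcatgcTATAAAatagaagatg
The AP-1 motif began 63 bases before the annotated start in Mmp7 and Mmp10, 46 in Mmp3, 44 in Mmp12 and 35 in Mmp13, and in Mmp12 TATAAA began at base 5 after the start, past the stretch shown. The Mmp12 start used here is an annotated start inside the gene, which spans positions 7344397 to 7360461. The window at the first base of Mmp12 (7344147 to 7344446) held neither AP-1 nor TATAAA. Nor did the window of another annotated start of Mmp7 (7692091 to 7692390). Mmp10, which carries both motifs, was listed at 0.00, 0.23 and 0.13 FPKM in stone samples and at 0 in each control sample. A match describes letters in a window and was not tested as a binding site.

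ADAMs had the highest summed level after the TIMPs, and their sums were separated between groups by a narrow gap. They summed to 94, 102 and 111 FPKM in stone samples and 88.4, 80.2 and 90.3 FPKM in control samples. Of 7 tested genes 3 rose and none fell, a share of rises near the 43.5% of all genes, and after median-of-ratios scaling 3 were higher and 1, Adam9, was lower. Adam17, which sheds TNF, TNF receptors and ligands of the EGF receptor, measured 10.08, 10.56 and 11.34 FPKM in stone and 6.44, 6.43 and 7.12 FPKM in control samples. Its groups were tight and did not overlap, and its log2 fold change was 0.61 ± 0.0764 (SE, limma, adjusted p = 0.000703). Adam10, the constitutive sheddase of Notch and cadherins, measured 24.79, 24.81 and 28.64 FPKM in stone and 18.97, 16.43 and 19.04 FPKM in control samples, a rise of 0.50 ± 0.0875 (SE, limma, adjusted p = 0.0028). Both calls held under median-of-ratios scaling, at 0.40 for Adam17 and 0.28 for Adam10.

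Adam9 and Adam15, widely expressed sheddases at a level like that of Adam10, did not pass. Adam9 measured 27.93, 28.95 and 30.04 FPKM in stone and 29.30, 28.52 and 32.97 FPKM in control samples, and Adam15 measured 21.42, 26.37 and 28.37 FPKM in stone and 24.68, 22.53 and 22.99 FPKM in control samples. The groups overlapped for both, with log2 fold changes of -0.06 and 0.10 (limma, adjusted p = 0.509 and 0.417). The direction of both depended on scaling, since median-of-ratios scaling put Adam9 at -0.29 (limma, adjusted p = 0.00936) and quantile normalization at -0.21 (adjusted p = 0.0352), both called lower, while Adam15 was called higher with equal FPKM sums (0.37, adjusted p = 0.0152) and without stone sample 1 (0.22, adjusted p = 0.0483).

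Adam19, an ADAM of mesenchymal and neural tissue, rose from a low level, at 1.20, 1.88 and 1.64 FPKM in stone and 0.35, 0.30 and 0.81 FPKM in control samples (log2 fold change 0.80 ± 0.178, SE, limma, adjusted p = 0.00762). That call was lost after quantile normalization (adjusted p = 0.0669). Below the level for testing, the leukocyte ADAM Adam8 measured 0.75, 1.31 and 1.12 FPKM in stone and 0.13, 0.29 and 0.15 FPKM in control samples, and Adam12, an ADAM of muscle and activated stroma, measured 1.32, 1.60 and 1.20 FPKM in stone and 0.37, 0.31 and 0.66 FPKM in control samples. Both were separate between groups, and both were called higher with the minimum of 0.3 FPKM (limma, adjusted p = 0.00267 and 0.00333). Of the ADAMs without a working zinc site, Adam22 and Adam23 were separate and higher, at means of 1.15 against 0.677 and of 0.263 against 0.03 FPKM in stone and control samples. Adam11 did not pass, at 2.77, 2.29 and 2.75 FPKM in stone and 3.25, 2.18 and 2.33 FPKM in control samples (log2 fold change 0.02, limma, adjusted p = 0.93), with a sign that depended on scaling.

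The ADAMs known from testis and epididymis were low throughout and showed no separation between groups. Of 9 in the table, 8 were below the level for testing. Adam1a, a subunit of the sperm protein fertilin, measured 1.24, 1.78 and 2.34 FPKM in stone and 2.71, 1.33 and 2.28 FPKM in control samples and did not pass (log2 fold change -0.15, limma, adjusted p = 0.574). Its annotated exons overlap other genes, 63.7% of their bases with Gm42878 on the same strand, which was not analysed here, 11.3% with Tmem116 on the opposite strand, which was called lower, and 24% with Mapkapk5 on the same strand, which measured between 19.02 and 19.76 FPKM in all samples. Adam1a was called lower after quantile normalization (-0.54, adjusted p = 0.0355). The remaining 8 were Adam1b, Adam3, Adam4, Adam5, Adam7, Adam21, Adam30 and Adam32, with 0.54 FPKM as their highest value in any sample. Adam28 and Adam33 overlapped between groups as well.

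**Figure D3:**
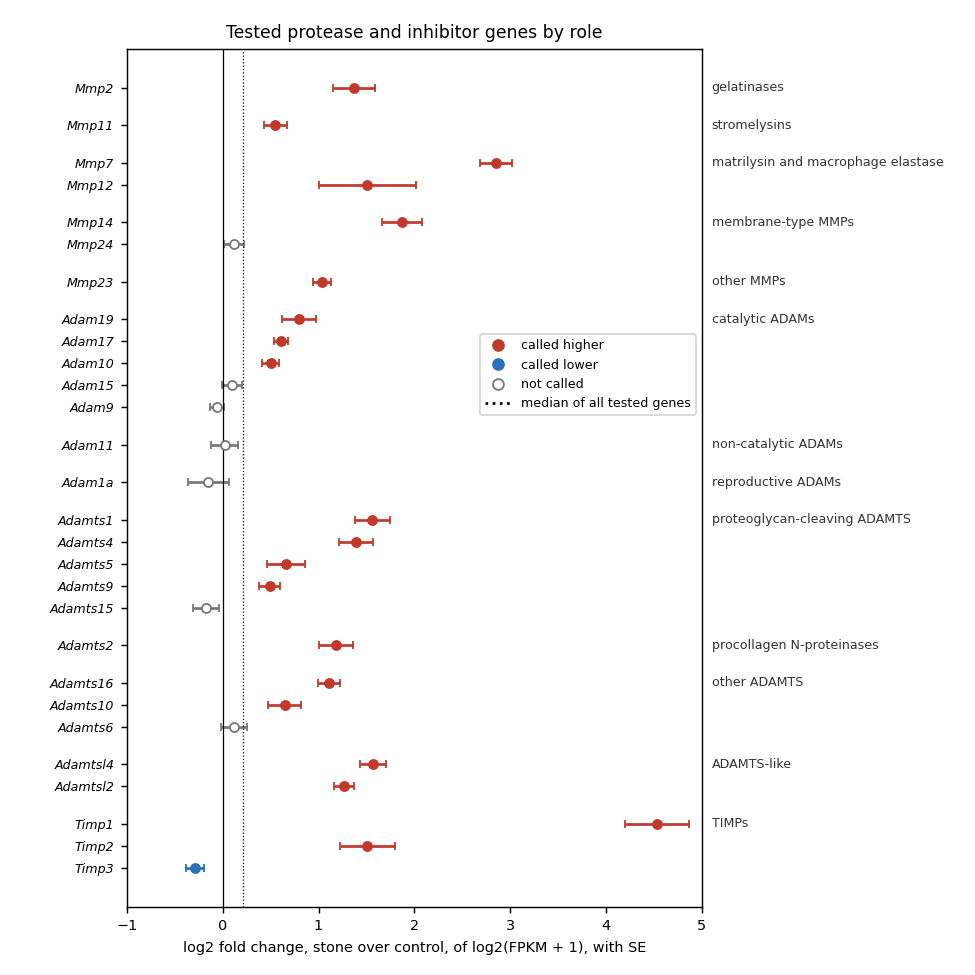
Log2 fold change (stone over control, on log2(FPKM + 1)) of the 28 tested genes by role, with SE bars from limma with 3 samples per group. Red points were called higher, the blue point lower and open points not called. Timp1 stands furthest right at 4.53, Timp3 is the only blue point at -0.29, and the dotted line marks the median of all tested genes at 0.21.

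ADAMTS enzymes rose in 7 of 9 tested genes and fell in none, against 43.5% and 13.9% of all genes tested. The family summed to 56.8, 69.8 and 62.4 FPKM in stone samples and 23.7, 24 and 31.8 FPKM in control samples. Adamts1, which cleaves the proteoglycans aggrecan and versican, held the largest share of that sum in all 6 samples. It measured 34.14, 41.20 and 35.86 FPKM in stone and 8.95, 11.56 and 15.91 FPKM in control samples. The groups were separate by a wide margin, and the log2 fold change was 1.56 ± 0.183 (SE, limma, adjusted p = 0.00051). Adamts4, known as aggrecanase-1, measured 1.40, 2.63 and 2.19 FPKM in stone and 0.16, 0.23 and 0.09 FPKM in control samples, a rise of 1.39 ± 0.176 (SE, limma, adjusted p = 0.000719). Adamts5, aggrecanase-2 and the neighbour of Adamts1 on chromosome 16, rose less, at 2.81, 3.48 and 2.72 FPKM in stone and 1.33, 1.03 and 2.40 FPKM in control samples (log2 fold change 0.66, limma, adjusted p = 0.0244). Median-of-ratios scaling (adjusted p = 0.0651), quantile normalization (0.247) and the removal of control sample 1, control sample 2 or stone sample 2 (limma, adjusted p of 0.0762, 0.0721 and 0.0784) each ended the Adamts5 call.

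Adamts9, a versican-cleaving enzyme, measured 3.06, 3.25 and 2.87 FPKM in stone and 1.80, 1.70 and 2.21 FPKM in control samples, separate and called higher at 0.49 (limma, adjusted p = 0.00701), though not after quantile normalization (adjusted p = 0.524). Adamts15, another proteoglycan-cleaving member, was the exception of that group, at 3.34, 4.14 and 3.94 FPKM in stone and 4.84, 3.48 and 4.98 FPKM in control samples. Its groups overlapped and it did not pass (log2 fold change -0.17, limma, adjusted p = 0.313), but median-of-ratios scaling (-0.36, adjusted p = 0.0455) and quantile normalization (-0.53, adjusted p = 0.00582) each made it a lower call, and equal FPKM sums turned its sign (0.06). In stone samples Adamts15 held between 5.88% and 6.32% of the ADAMTS sum, and in control samples between 14.5% and 20.4%. Its neighbour on chromosome 9, Adamts8, was low, at 0.15, 0.11 and 0.08 FPKM in stone and 0.18, 0.32 and 0.03 FPKM in control samples.

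The procollagen N-proteinases, which trim the amino end of fibrillar procollagen so that fibrils can form, were all separate and higher, Adamts14 by a narrow gap. Among all genes, groups did not overlap for 66.3% of those tested, and 20.1% of those below the level for testing were separate and higher. Adamts2, the main enzyme for type I procollagen, measured 1.38, 2.68 and 2.23 FPKM in stone and 0.33, 0.29 and 0.43 FPKM in control samples (log2 fold change 1.18 ± 0.178, SE, limma, adjusted p = 0.00153). Adamts3 and Adamts14 were below the level for testing, at 0.27, 0.22 and 0.20 and at 0.42, 0.50 and 0.28 FPKM in stone and at 0.11, 0.05 and 0.10 and at 0.14, 0.14 and 0.27 FPKM in control samples. Col1a1, a substrate of these enzymes, averaged 23.6 ± 7.52 FPKM in stone and 2.71 ± 0.569 FPKM in control samples (SD, n = 3 each).

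Adamts16, a member of less known substrates expressed in developing kidney, was the 1 gene of those called higher that stood highest in stone sample 1, at 3.26, 2.66 and 2.54 FPKM in stone and 0.80, 0.76 and 0.72 FPKM in control samples. It rose by 1.11 ± 0.115 (SE, limma, adjusted p = 0.00031). Adamts10, which binds fibrillin microfibrils, measured 3.48, 5.14 and 6.01 FPKM in stone and 2.93, 2.29 and 2.85 FPKM in control samples (log2 fold change 0.65, limma, adjusted p = 0.0152), a call that quantile normalization (adjusted p = 0.11) and the removal of control sample 2 (0.0541) or stone sample 2 (0.0511) ended. Its close relative Adamts6 did not pass, at 1.70, 1.64 and 1.66 FPKM in stone and 1.69, 1.69 and 1.04 FPKM in control samples (log2 fold change 0.12, limma, adjusted p = 0.479). Adamts7 and Adamts12, which cleave the cartilage matrix protein COMP, were under 1 FPKM on average and separate, at 0.95, 1.34 and 0.93 and at 0.46, 0.74 and 0.75 FPKM in stone and at 0.20, 0.31 and 0.55 and at 0.09, 0.06 and 0.09 FPKM in control samples. With the minimum of 0.3 FPKM both were called higher (limma, adjusted p = 0.00801 and 0.0037). Adamts13, the von Willebrand factor protease made mainly in liver, was listed at 0 in each stone sample and at 0.07, 0.05 and 0.02 FPKM in control samples. Adamts17, Adamts18, Adamts19 and Adamts20 did not exceed 0.1 FPKM in any sample.

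The ADAMTS-like genes encode matrix proteins that bind fibrillin or latent TGF-beta binding proteins and have no protease domain. They summed to 15.6, 19.1 and 18.3 FPKM in stone samples and 5.21, 4.7 and 6.25 FPKM in control samples. Adamtsl2 measured 10.47, 12.66 and 11.29 FPKM in stone and 4.17, 3.68 and 4.72 FPKM in control samples, and Adamtsl4 measured 3.37, 3.78 and 3.89 FPKM in stone and 0.55, 0.37 and 0.84 FPKM in control samples. Both were separate between groups, with log2 fold changes of 1.27 ± 0.104 and 1.57 ± 0.137 (SE, limma, adjusted p = 0.000125 and 0.000159). Adamtsl5, just under the level for testing with a mean of 0.988 FPKM, measured 1.30, 1.71 and 2.08 FPKM in stone and 0.22, 0.33 and 0.29 FPKM in control samples, and was called higher with the minimum of 0.3 FPKM (limma, adjusted p = 0.000655). Adam19 lay just above that level, at a mean of 1.03 FPKM. Adamtsl1 was also separate and higher, at 0.83 against 0.303 FPKM on average in stone and control samples, and Adamtsl3 did not exceed 0.04 FPKM.

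**Figure D4:**
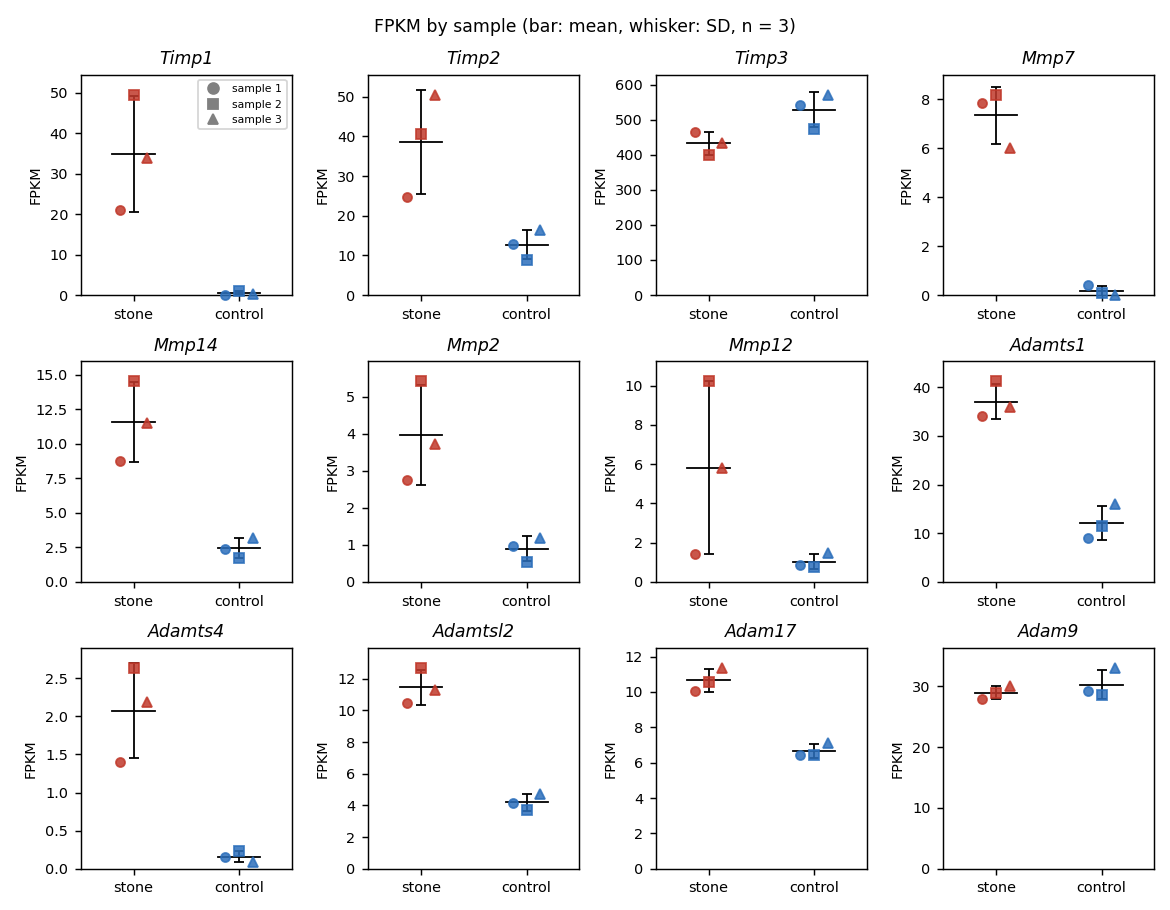
FPKM of 12 named genes in each sample, one panel a gene with its own axis from 0, stone samples (red) left of control samples (blue), with symbols for samples 1 to 3, a bar at the mean and a whisker for the SD (n = 3). Timp1, Mmp7 and Adamts4 are near 0 in control samples, Mmp12 of stone sample 1 (1.42) lies among the control values, and Adam9 overlaps between groups.

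In all, 42 genes were below the level for testing. Of these, 16 (38.1%) were separate and higher in stone kidneys and 1, Adamts13, was separate and lower, against 20.1% and 4.79% of the 5614 untested genes of the table. With a minimum mean of 0.3 FPKM, 16 of the 42 entered the test and 11 of them were called higher and 0 lower, so that 31 of 44 genes (70.5%) were called higher, with 41.9% of all genes tested at that minimum called higher and 12.9% lower. With no minimum, 35 of the 70 (50%) were called higher and 0 lower, with 33.3% and 10% of all genes.

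Annotated exons (GENCODE M21) of several of these genes overlap other genes, which makes their values uncertain. The share of exon bases shared was 4.3% for Adam17 with Iah1, 5.6% for Mmp11 with Chchd10 and 22.3% for Mmp19 with Tmem198b. Iah1 and Chchd10 were called lower in stone kidneys and Tmem198b was not called, while Adam17 and Mmp11 were called higher.

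Stone samples differed among themselves in a shared way. Of the 20 genes called higher, 13 (65%) had their highest stone value in sample 2 and 15 (75%) their lowest in sample 1, compared with 32.9% and 57.6% of all 5356 genes called higher. The exceptions with the lowest value elsewhere were Mmp7, Adamts5, Adamts9 and Adamts16 in stone sample 3 and Mmp23 in stone sample 2. Marker sums of several cell types were also lowest in stone sample 1 of the stone samples, those of macrophages (167, 307 and 228 FPKM in stone samples 1 to 3), fibroblasts and myofibroblasts (168, 283 and 276), endothelium (94.1, 115 and 150), thick limb and distal tubule (1394, 2208 and 1676) and collecting duct (316, 332 and 684). Podocyte markers (95.3, 80.3 and 78.7 FPKM), neutrophil markers (28.1, 20 and 19.1) and proximal tubule markers other than Kap (4228, 3331 and 3296) were highest there. Injured tubule markers other than Spp1 summed to 574, 694 and 1323 FPKM in stone samples 1 to 3. The part of any of these in the order of the protease genes was not tested.

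Genes that act on or with these proteases were counted on lists chosen for that role. Of 95 such genes 74 were tested, 45 (60.8%) were higher and 12 (16.2%) lower in stone kidneys, with 43.5% and 13.9% of all genes tested, so the share that fell was near that of all genes. After median-of-ratios scaling 37 were higher and 16 lower, with 23.9% and 24.9% of all genes. Among 17 tested genes that activate or control MMPs, 9 rose and 4 fell, and after median-of-ratios scaling 7 were higher and 6 lower. Plaur, the urokinase receptor, averaged 19.5 ± 4.42 FPKM in stone and 1.94 ± 0.259 FPKM in control samples, and Cd44, which anchors Mmp7 and Mmp9 at the cell surface, averaged 6.16 ± 2.39 FPKM in stone and 0.387 ± 0.152 FPKM in control samples (SD, n = 3 each). Lcn2, whose product binds Mmp9, had a log2 fold change of 6.43 (limma, adjusted p = 3.36e-05). Pzp, a broad protease inhibitor related to alpha-2-macroglobulin, fell to 1.82 ± 0.18 FPKM in stone samples, against 40.6 ± 11.1 FPKM in control samples (SD, n = 3 each). The convertase Pcsk6 and the MMP inducer Bsg fell by 1.37 and 0.39 on the log2 scale. Equal FPKM sums ended the Bsg call (-0.11, limma, adjusted p = 0.23). The membrane-anchored MMP inhibitor Reck, named after its values were seen, did not pass, at 1.66 ± 0.452 FPKM in stone and 1.73 ± 0.453 FPKM in control samples (limma, adjusted p = 0.863), and was called lower after quantile normalization (-0.44, adjusted p = 0.0315).

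Partners that carry ADAM10 or ADAM17 to the cell surface rose in 6 of 8 tested genes and fell in none, with 3 higher and 1 lower after median-of-ratios scaling. Of all genes tested 43.5% were higher and 13.9% lower, and after that scaling 23.9% and 24.9%. The iRhom gene Rhbdf2, needed for maturation of ADAM17 in immune cells, averaged 9.81 ± 0.164 FPKM in stone and 3.8 ± 0.276 FPKM in control samples, and its paralog Rhbdf1 averaged 27.3 ± 1.91 FPKM in stone and 13.6 ± 0.596 FPKM in control samples (SD, n = 3 each). Tspan14, a tetraspanin of ADAM10, had a log2 fold change of 0.57 (limma, adjusted p = 0.000824). Substrates shed by ADAM10 or ADAM17 rose in 16 of 26 tested genes and fell in 3, with 13 higher and 4 lower after median-of-ratios scaling. Before that scaling, the share of substrates that fell was near that of all genes. The adhesion molecule genes Icam1 and Vcam1 and the chemokine gene Cxcl16 rose by 1.89, 3.18 and 1.35 on the log2 scale. Egf, Kl and Mertk fell by 2.49, 0.68 and 0.38, and equal FPKM sums ended the Mertk call (-0.12, limma, adjusted p = 0.164).

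Substrates of ADAMTS proteases rose in 11 of 13 tested genes and fell in none, against 43.5% and 13.9% of all genes tested. The counts were the same after median-of-ratios scaling, against 23.9% and 24.9% of all genes. Thbs2, Col1a1 and Col3a1 had the smallest p of these, with log2 fold changes of 1.31, 2.69 and 2.31 (limma, adjusted p = 0.000139, 0.000163 and 0.000324). The list of metalloproteases of other families also holds Pcolce, which is not a protease. Its genes went both ways, 3 of 10 tested higher, Pcolce among them, and 5 lower, also after median-of-ratios scaling. Bmp1, the procollagen C-proteinase, averaged 7.67 ± 1.14 FPKM in stone and 1.88 ± 0.362 FPKM in control samples, and its enhancer Pcolce and the IGF-binding protein protease Pappa rose by 0.54 and 0.61 on the log2 scale, Pappa with no call after quantile normalization (adjusted p = 0.253). The brush border peptidases Mep1a, Anpep and Ace fell, Mep1a to 357 ± 49.4 FPKM in stone samples, against 932 ± 60.1 FPKM in control samples, and Ace to 21.4 ± 4.94 FPKM in stone samples, against 90.2 ± 9.65 FPKM in control samples (SD, n = 3 each).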

How the data were processed

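RNA of whole kidney was measured in 3 stone and 3 control samples. The deposited table holds FPKM made by the authors, 1 column per sample, with 0 columns of other samples. Reads were aligned with HISAT2 2.0.4 to GRCm38.p6, per the submitters' processing notes, and the tool that computed FPKM, with its annotation, is not stated in the labels or files used. Libraries were made with dUTP in the second strand, per the labels' protocols, and whether fragments were assigned by strand is not given, so values of overlapping genes are uncertain. FPKM sums ran from 609705 to 758514, and absolute depth is unknown.

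Genes averaging 1 FPKM or more were compared on log2(FPKM + 1) with limma 3.58.1 in R 4.3.3 (trend, two-sided, Benjamini-Hochberg over 12319 genes, threshold 0.05). With 3 samples per group, an exact permutation test of 1 gene cannot go below p = 0.1, and none was used. Errors are SD or SE as named. The script was tested on simulated data. Alternatives covered pseudocounts, filters, scaling, weights, a replicate block and left-out samples. Values in every sample were due for the TIMPs, up to 4 called genes per role, the 3 most abundant genes and low genes with means at least 3 times apart that reach 0.3 FPKM, others are named to account for every member, and in the other lists up to 3 called genes with the smallest p in each direction are named. The members, roles and lists were chosen with earlier results of these data known. Positions and promoters are from RefSeq on GRCm38.p6 and exon overlaps from GENCODE M21 on the same build.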

Additional observations from a re-analysis of the deposited data

How the results depend on the processing

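Over 18 alternatives, 14 of the 21 calls were kept under every one (all but Timp3, Mmp11, Mmp12, Adam19, Adamts5, Adamts9 and Adamts10). The 20 higher and 1 lower members became 31 and 1 with a minimum of 0.3 FPKM, 35 and 0 with no filter, 18 and 3 after median-of-ratios scaling, 14 and 3 after quantile normalization and 22 and 0 with equal FPKM sums. Leaving out 1 sample gave 17 to 21 higher and 0 to 1 lower members, a median of 0.65 to 0.91, 4265 to 5242 higher and 1360 to 1697 lower among all genes, and 40 to 48 higher and 11 to 12 lower genes on the other lists. The median of the members was 1.18 with a pseudocount of 0.1, 0.94 with 0.5, 0.24 with no filter and 0.36 after quantile normalization. Of all genes, 2948 were higher and 3064 lower after median-of-ratios scaling, 2744 and 3138 after quantile normalization and 8440 and 797 with equal FPKM sums, against 5356 and 1711 as deposited. Leaving out the 2 samples high in adipocyte markers, an alternative chosen after seeing the data, gave 16 higher and 1 lower members, without Mmp12, Adam19, Adamts5 and Adamts10.

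Only genes that were not called changed sign. Adam11 (0.02) stood at -0.15 after median-of-ratios scaling, -0.37 after quantile normalization, -0.01 with equal sums without Kap, -0.23 with array weights, -0.06, -0.03, -0.02 and -0.01 without control sample 2, control sample 3, stone sample 1 and stone sample 3 (from -0.06 to 0.14 over all left-out samples), and -0.10 without the adipocyte-high samples. Adam15, Adamts6 and Mmp24 stood at -0.12, -0.02 and -0.04 after median-of-ratios scaling and -0.07, -0.27 and -0.27 after quantile normalization. Adam15 was at -0.0028 without the adipocyte-high samples and Adamts6 at -0.01 without control sample 3 (from -0.01 to 0.19 over all left-out samples). Adam1a, Adam9 and Adamts15 stood at 0.03, 0.21 and 0.06 with equal FPKM sums, and Adam9 at 0.0026 without control sample 3 (from -0.10 to 0.0026 over all left-out samples). The causes were not tested.

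With the replicate number as a block, 20 members were higher and 1 lower. Deviations of same-numbered samples correlated at 0.0075, -0.22 and -0.0397, and 0 of 6 samples correlated best with their own number. No pairing by number was seen, but deviations within groups of 3 samples cannot exclude it. The absolute depth of the libraries is unknown, which limits what can be said of genes near 0 FPKM.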
